A study of Mus musculus with 6 samples.

Results

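The transcripts examined are 10 noncoding genes that host small nucleolar RNAs (snoRNAs): Snhg12, Zfas1, Gas5, Snhg1, Snhg3, Snhg5, Snhg6, Snhg8, Snhg15 and Epb41l4aos. They were taken by symbol from the 11452 gene symbols of the deposited table, and all 10 were present. Snhg12 and Zfas1 had been chosen by their measured levels, which were high in the libraries numbered 4, so the contrast of those libraries with the others is described for the 10 genes and not tested. The samples were cell pools of 4T1, an established line from a mouse mammary tumour, either knockout (KO) or wild type (WT) for Myo1e, which encodes a single-headed myosin that moves on actin. There were 3 libraries of each genotype, whose columns carry the numbers 1, 2 and 4, and a library is named here by genotype and number, as KO 4. No treatment is given for either genotype, and the sources used here do not say how the knockout or the pools were made.

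A snoRNA host gene carries snoRNAs in its introns. Splicing releases the intron, which is trimmed to a snoRNA that guides chemical modification or processing of ribosomal RNA, while the spliced host transcript is exported to the cytoplasm. Several spliced hosts hold short reading frames that ribosomes enter and leave early, and such transcripts are degraded by nonsense-mediated decay, which acts on stop codons that lie well upstream of an exon junction. Gas5, named as a growth arrest-specific transcript, is the textbook case of a host that accumulates when translation is blocked. Many hosts also begin with a 5′ terminal oligopyrimidine (TOP) tract, a run of C and T at the transcript start that ribosomal protein mRNAs share.

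In the GENCODE vM21 annotation of GRCm38 the 10 genes held 34 annotated snoRNA genes. Gas5 (chromosome 1, 161034422 to 161038539, plus strand) held 10, among them Snord47, Snord78 and a gene that is named Mir5117 but typed there as a snoRNA. Snhg1 (chromosome 19, 8723475 to 8726443, plus strand) held 8 and Snhg12 (chromosome 4, 132308623 to 132311024, plus strand) held 5. Zfas1 (chromosome 2, 167062934 to 167065862, plus strand) held 3, including Snord12. Snhg3 (chromosome 4, 132348014 to 132353686, minus strand) held 2, Snora73a and Snora73b, and Snhg5 (chromosome 9, 88521050 to 88522929, minus strand) held 2, Snord50a and Snord50b. One snoRNA gene each lay in Snhg6 (chromosome 1, 9941959 to 9944118, minus strand), Snhg8 (chromosome 3, 123507552 to 123508404, minus strand), Snhg15 (chromosome 11, 6525591 to 6528760, minus strand) and Epb41l4aos. None of the snoRNAs themselves was measured, since 0 rows of the table are annotated as snoRNA or scaRNA.

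The starts of 6 hosts are shown because hosts with a tract at the start and a host without one lay among those that were higher in the libraries numbered 4. Each line gives 20 bases before and 40 bases from a RefSeq start site (GRCm38.p6), 5′ to 3′ on the gene's strand. Capitals mark a pyrimidine tract, here a C followed by C or T for at least 5 bases in all, beginning between position -5 and position 10 of the start.
Snhg12, chr4:132308658-132308717, plus strand: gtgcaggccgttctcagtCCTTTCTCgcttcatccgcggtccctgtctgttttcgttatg
Gas5, downstream start, chr1:161035146-161035205, plus strand: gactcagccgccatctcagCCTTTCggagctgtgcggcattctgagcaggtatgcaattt
Snhg8, chr3:123508297-123508356, minus strand: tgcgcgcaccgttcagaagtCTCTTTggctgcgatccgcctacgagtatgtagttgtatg
Snhg5, chr9:88522858-88522917, minus strand: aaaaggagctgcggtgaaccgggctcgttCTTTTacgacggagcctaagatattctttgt
Snhg3, chr4:132353647-132353706, minus strand: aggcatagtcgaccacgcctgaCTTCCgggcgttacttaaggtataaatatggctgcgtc
Zfas1, chr2:167062914-167062973, plus strand: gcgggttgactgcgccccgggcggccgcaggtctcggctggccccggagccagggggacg

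RefSeq promoter entries were found for 8 of the 10 genes, 9 entries in all since Gas5 has an upstream and a downstream start. A tract was found on the transcribed strand in 5 of the 9 entries, against 21.1% of all 32851 promoter entries and 44.1% of 68 entries of ribosomal protein genes. The entries of Snhg1, Snhg15 and Zfas1 and the upstream start of Gas5 had no tract by this definition. Snhg3, the host that was lower in the libraries numbered 4, had one of 5 bases. For each host the longest annotated transcript with more than 1 exon was also read from its first ATG. Such a transcript can retain introns: in Snhg1 it had 2728 bases in 2 exons, beside 2969 exon bases in the gene. The frames may therefore not be those of the fully spliced hosts. In all 10 the stop codon lay more than 50 bases upstream of the last exon junction, as it did in 72.0% of the 353 spliced noncoding genes of the table. That distance was 1143 bases in Snhg12, 239 in Zfas1, 205 in Snhg3 and 68 in Snhg15, the shortest of the 10, and the frame from the first ATG ran for 54 codons in Snhg12, 17 in Zfas1 and 14 in Gas5.

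Whole reads could be recovered from the deposited values, and they numbered 17772003 to 19988206 per library. The hosts were covered by 187 reads (Epb41l4aos in KO 2) to 13362 reads (Gas5 in KO 4), so counting error is small beside the differences by number given here. The targeted gene Myo1e was at 6.87, 6.81 and 6.81 log2 CPM in KO 1, KO 2 and KO 4, and at 7.09, 7.02 and 6.91 in WT 1, WT 2 and WT 4 (limma adjusted p = 0.9999). Transcripts of the targeted gene were thus present in the KO libraries, and a whole-gene value does not check the labels. All 10 epithelial markers were measured, with a summed level of 3818 to 5308 CPM. Of the markers of other cell types 2 of 10 for fibroblasts, 2 of 10 for leukocytes and 0 of 8 for endothelium were in the table. Epithelial marker sums were 3818 to 4107 CPM in the libraries numbered 4 and 4573 to 5308 CPM in the others. Fibroblast sums were 51.5 to 71.0 CPM and 29.9 to 76.8 CPM in the same order, leukocyte sums 10.9 to 11.2 CPM and 12.9 to 16.8 CPM, and the sums of the 7 measured mitochondrially encoded genes 2970 to 3219 CPM and 3896 to 5076 CPM. Single epithelial markers went both ways. Their log2 differences between the libraries numbered 4 and the others ran from -1.27 to 1.34, with a median of 0.01 and 5 of 10 above 0. The part of all these markers in the results was not tested.

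The hosts differed far more by library number than by genotype. Of the 10 hosts 9 were higher in both libraries numbered 4 than in all of the other 4 libraries, where 35.8% of 11269 genes behaved in that way, and 1 host was lower in both, where 37.0% did. These counts describe genes chosen with this contrast in view. The median difference of the 10 was 1.53 on the log2 scale (1.39 in KO and 1.64 in WT), and that of all genes was 0.0031. That median includes Snhg12 and Zfas1, which were chosen for high levels in these same libraries, so it too is only a description. The remaining hosts ran from -1.37 for Snhg3 to 1.83 for Snhg1. Levels throughout are log2 CPM, the log2 of a read count scaled to its library with the authors' prior added, and differences are on the same log2 scale.

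**Figure D1:**
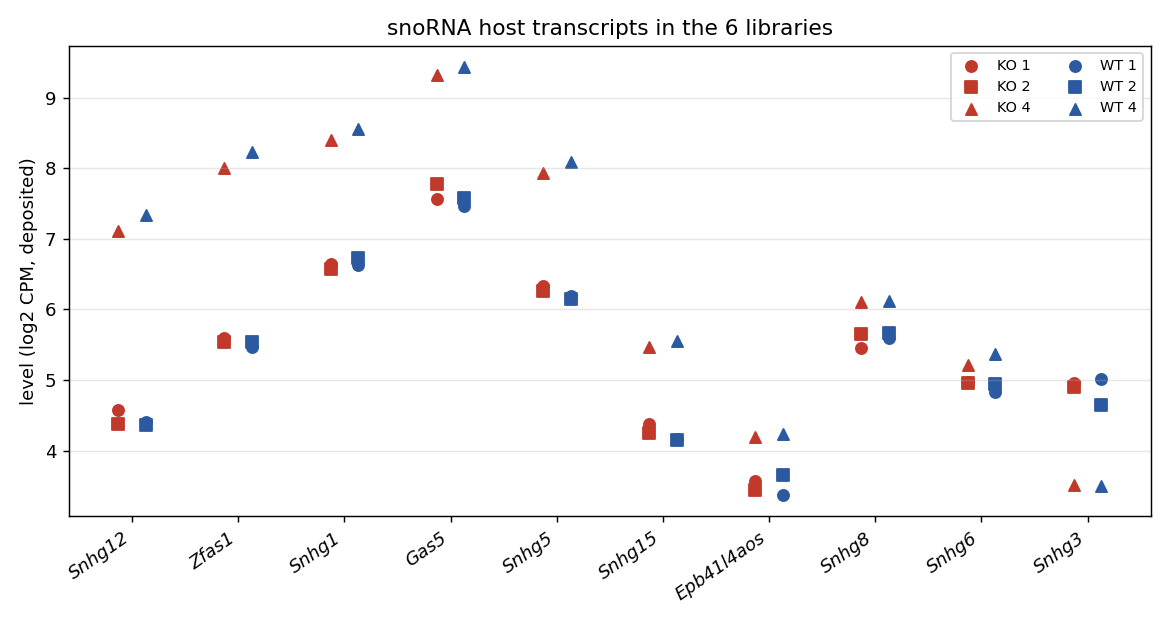
Level (log2 CPM, vertical axis) of each host transcript (horizontal axis, ordered by the difference by number) in the 6 libraries; each point is 1 library, red for KO and blue for WT, with the library number as the symbol. Triangles, the libraries numbered 4, lie above the circles and squares for 9 genes and below them for Snhg3, where they are at 3.52 and 3.50.

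Snhg12, which hosts box H/ACA and box C/D snoRNAs, had the largest difference of the 10. It was at 4.58, 4.38 and 7.12 log2 CPM in KO 1, KO 2 and KO 4, and at 4.40, 4.36 and 7.34 in WT 1, WT 2 and WT 4. The 4 libraries numbered 1 and 2 lay within 0.23 of each other, and both libraries numbered 4 were above all of them by more than 10 times that range. In reads, 359 to 464 in the former compare with 2892 in KO 4 and 3028 in WT 4. The mean difference was 2.80, a 6.95-fold higher level, and ranked 41 of the 11269 genes.

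Zfas1, transcribed from the promoter region of Znfx1 in the opposite direction, was at 5.60, 5.54 and 8.0 log2 CPM in KO 1, KO 2 and KO 4. In WT 1, WT 2 and WT 4 it was at 5.47, 5.54 and 8.23. It had the narrowest range of the 10 among the libraries numbered 1 and 2, 0.13, and the second largest difference by number. That difference was 2.58 (5.96-fold), at rank 53.

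Gas5, Snhg1 and Snhg5 formed a group with nearly equal differences. Gas5 was the most abundant host in reads per gene, at 7.56, 7.77 and 9.32 in KO 1, KO 2 and KO 4 and at 7.47, 7.58 and 9.43 in WT 1, WT 2 and WT 4. Snhg1 was at 6.64, 6.57 and 8.40 in the KO libraries and at 6.63, 6.73 and 8.55 in the WT libraries, in the order 1, 2 and 4. Both genes were higher in each library numbered 4 without overlap. Snhg5, which hosts Snord50a and Snord50b, was at 6.33, 6.26 and 7.93 in KO and at 6.20, 6.15 and 8.10 in WT, in the same order. The differences of the 3 genes were 1.78 for Gas5 (3.44-fold), 1.83 for Snhg1 (3.56-fold) and 1.78 for Snhg5 (3.43-fold).

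Snhg15, host of Snora9, was intermediate. It was at 4.38, 4.25 and 5.47 log2 CPM in KO 1, KO 2 and KO 4 and at 4.16, 4.15 and 5.56 in WT 1, WT 2 and WT 4, a difference of 1.28 (2.42-fold).

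Epb41l4aos, Snhg8 and Snhg6 were higher by less. Epb41l4aos (chromosome 18, 33794892 to 33795986, plus strand) is a short transcript beside the end of Epb41l4a, which lies on the other strand. Epb41l4aos was at 3.57, 3.44 and 4.20 in KO and at 3.37, 3.65 and 4.23 in WT, in the order 1, 2 and 4. Snhg8, host of Snora24, was at 5.46, 5.65 and 6.11 in KO and at 5.59, 5.67 and 6.11 in WT. Snhg6, host of Snord87, was at 4.97, 4.96 and 5.22 in KO and at 4.83, 4.94 and 5.37 in WT. In each of the 3 genes the libraries numbered 4 did not overlap the others, but the step between them was small: 0.71 for Epb41l4aos (1.63-fold), 0.52 for Snhg8 (1.43-fold) and 0.37 for Snhg6 (1.29-fold), at ranks 1427, 2157 and 2897.

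Snhg3 went the other way. This host of the abundant box H/ACA RNAs Snora73a and Snora73b was at 4.96, 4.91 and 3.52 in KO 1, KO 2 and KO 4 and at 5.02, 4.64 and 3.50 in WT 1, WT 2 and WT 4. Both libraries numbered 4 lay below the other 4, with 238 and 211 reads against 464 to 626. Its difference was -1.37, equal to 0.386 times the level in libraries 1 and 2, and ranked 225 from the lowest of all genes. Part of Snhg3 is shared with Rcc1, the gene of a nuclear exchange factor for Ran, which lies on the same strand with 135 bases of common exon sequence, so reads there cannot be told apart. Gm17300, on the other strand, overlaps 705 of the 986 exon bases of Snhg3, and without the strand setting of the counting its reads may be included. Rcc1 was at 7.25, 7.20 and 6.72 in KO and at 7.26, 7.31 and 6.77 in WT, a difference of -0.51 (limma adjusted p = 2.7e-05).

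The size of the difference by number varied among the hosts by much more than it varied between genotypes for any of them. Within KO it ran from -1.41 for Snhg3 to 2.64 for Snhg12, and within WT from -1.33 to 2.96 for the same genes. The KO and WT values of a single gene were closest for Epb41l4aos, at 0.70 and 0.72, and furthest apart for Snhg12. Scaling each library to its own reads in the table in place of the authors' scaling raised the median gene by 0.11. No host changed direction under this or the other scalings.

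**Figure D2:**
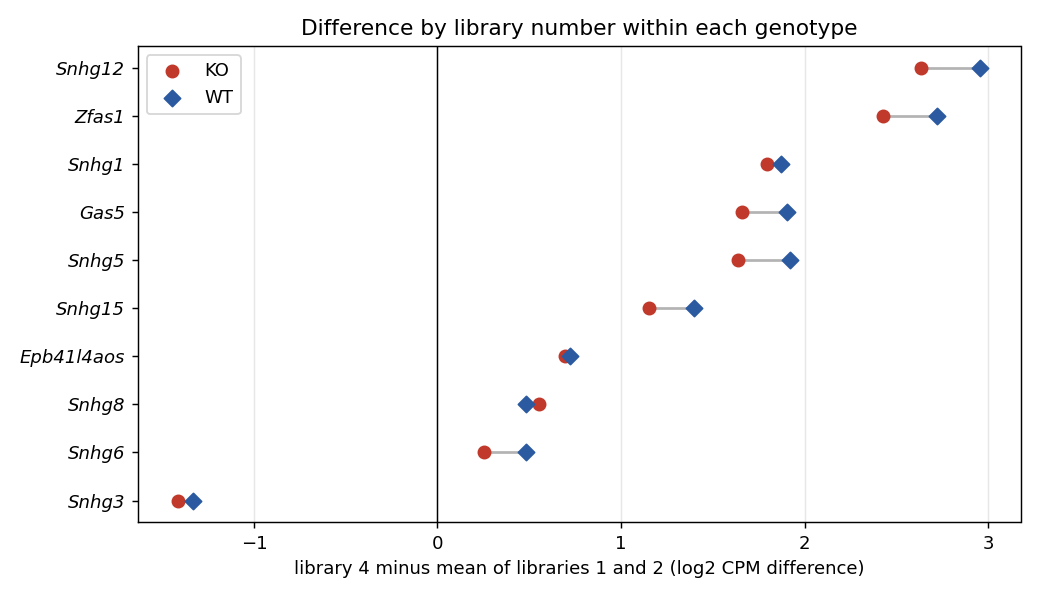
Difference between library 4 and the mean of libraries 1 and 2 (log2 CPM difference, horizontal axis) for each host, with KO as red circles and WT as blue diamonds joined by a line; each point rests on 3 libraries. Snhg12 lies at 2.64 in KO and 2.96 in WT, Snhg3 lies at -1.41 and -1.33, and the WT point is to the right of the KO point for 9 of the 10 genes.

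The difference by number also reordered the hosts. Per kilobase of annotated exon, which here includes exons of intron-retaining transcripts, Snhg8 and Gas5 were highest in the libraries numbered 1 and 2, at means of 5.82 and 5.69 log2 CPM per kilobase with overlapping ranges of 5.68 to 5.90 and 5.56 to 5.86. Snhg5 followed at 5.44, Snhg1 at 5.07 and Snhg3 at 4.90, the last pair with overlapping ranges. Snhg6 and Epb41l4aos were alike at 4.73 and 4.72 within their ranges, which also overlapped the range of Snhg3, 4.66 to 5.04. Zfas1 at 3.99 and Snhg15 at 3.79 overlapped, and Snhg12 at 3.16 was lowest, below the others without overlap. In the libraries numbered 4 the order on the same scale was Gas5 at 7.47, Snhg5 at 7.22, Snhg1 at 6.91, Zfas1 at 6.56, Snhg8 at 6.34 and Snhg12 at 5.96. Epb41l4aos was then at 5.43, Snhg6 and Snhg15 overlapped at 5.10 and 5.07, and Snhg3 was lowest at 3.52. The exon length used as the divisor was unlike between hosts. For Snhg12, Zfas1, Snhg1 and Snhg8 it was the whole gene, introns included, and for Snhg3 and Epb41l4aos only part of the gene, 986 and 430 bases. The order of hosts within a set of libraries therefore depends in part on the annotation.

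The comparison of KO with WT was not the contrast by which the hosts were chosen, although it uses the same libraries. None of the 10 hosts differed between the genotypes past an adjusted p of 0.05 in limma's test across 11269 genes, where 0.0% of genes did, and in no host were the KO libraries all above the WT libraries (2.04% of genes) or all below them (1.59%). The differences ran from -0.10 for Snhg1 to 0.08 for Snhg15. Their SEs were 0.17 to 1.07, since the libraries numbered 4 stay in the spread of this fit, and every adjusted p was 0.9999. At an unadjusted p under 0.05 there were 0 hosts and 23 genes.

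The mean level of Snhg12 was 5.36 ± 1.53 log2 CPM over the KO libraries and 5.37 ± 1.71 over the WT libraries (SD, n = 3), a difference of -0.0069 (SE 1.07). Zfas1 was at 6.38 ± 1.40 and 6.41 ± 1.57, a difference of -0.03 (SE 0.99). Gas5 was at 8.22 ± 0.96 and 8.16 ± 1.10, a difference of 0.06 (SE 0.69). For Snhg3 the levels were 4.46 ± 0.82 and 4.39 ± 0.79, with a difference of 0.07 (SE 0.54). In these 4 genes the SD within a genotype came almost wholly from the library numbered 4.

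With the library number as a replicate block, the SEs fell to 0.05 to 0.11 and still no host passed, with adjusted p-values of 0.57 to 0.99 in limma's test (0.00887% of all genes passed). The 95% intervals then bounded the genotype difference: -0.19 to 0.17 for Snhg12, -0.19 to 0.12 for Zfas1, -0.08 to 0.19 for Gas5, -0.22 to 0.02 for Snhg1 and -0.12 to 0.27 for Snhg3. Across the 10 hosts the bounds lay between -0.25 and 0.27.

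Within the pairs of equal number, KO was higher than WT for 8 of 10 hosts in pair 1, with a median difference of 0.13, and for 7 of 10 in pair 2, with a median of 0.02. In pair 4 it was lower for 9 of 10, with a median of -0.13, and all genes had a median of -0.01 there, with 46.7% of them higher in KO. Snhg12 differed by 0.18, 0.02 and -0.22 in pairs 1, 2 and 4. Zfas1 differed by 0.13, 0.0032 and -0.23, and Snhg5 by 0.14, 0.10 and -0.16. For Snhg15 the values were 0.22, 0.10 and -0.09, and for Gas5 they were 0.09, 0.19 and -0.11. These 5 genes and Snhg6 were lower in pair 4 than in both other pairs, as were 37.1% of all genes. Snhg1, by contrast, was at 0.02, -0.16 and -0.15, Snhg8 was at -0.14, -0.02 and -0.0077, Epb41l4aos was at 0.20, -0.21 and -0.03, and Snhg3 was at -0.06, 0.26 and 0.02.

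**Figure D3:**
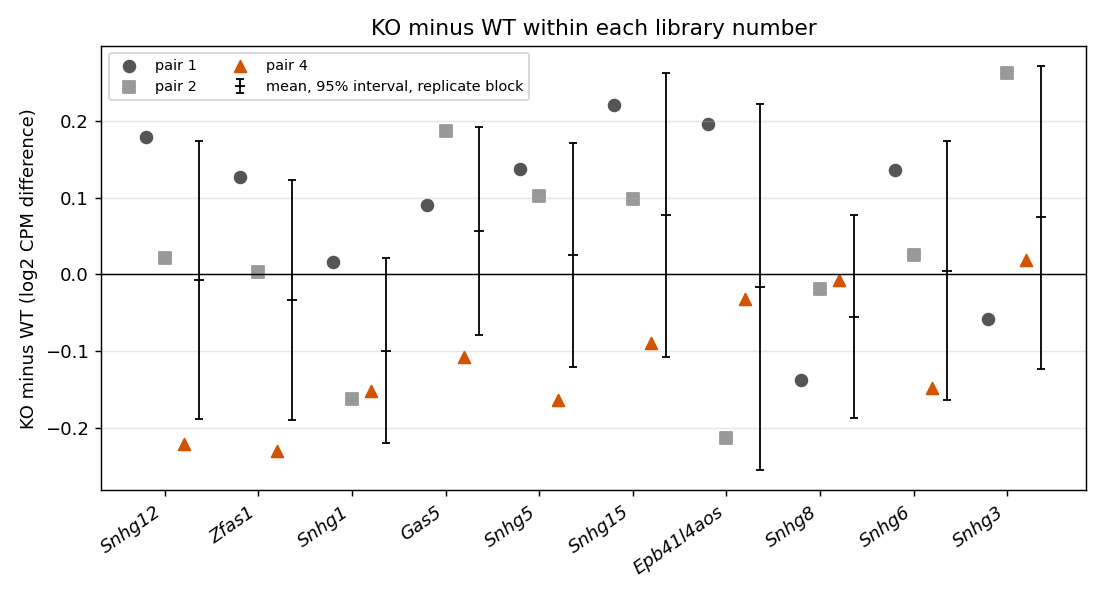
KO minus WT difference (log2 CPM, vertical axis) of each host (horizontal axis) in the pairs numbered 1 (dark circles), 2 (grey squares) and 4 (orange triangles), with the mean and its 95% interval from the fit with a replicate block as a black bar. The triangles lie below 0 for 9 of 10 genes, and all 10 intervals include 0.

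Whether the difference by number was alike in the 2 genotypes was tested with an interaction term. Of the 9 hosts that were higher in the libraries numbered 4, 8 were higher by less in KO than in WT, against 48.2% of the 5014 genes that were higher in both genotypes. The term, KO minus WT in number 4 less that in numbers 1 and 2, was -0.32 (SE 0.16) for Snhg12, -0.30 (SE 0.11) for Zfas1 and -0.28 (SE 0.11) for Snhg5. Zfas1 and Snhg5 each had an unadjusted p of 0.034, and the adjusted p from limma was 0.997 for both. No host and no gene passed (0.0% of 11269), and 440 genes had an unadjusted p under 0.05. Without WT 1 and without WT 2 the count of genes past the threshold was 145 and 269, with 0 hosts among them. On simulated counts this test recovered 6.5% of genes changed by 0.5 log2 units. A smaller rise in KO was therefore not shown for any single host, and it rests on 1 library numbered 4 per genotype.

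Transcript length moved with the genotype difference in pair 4. Spearman's rho between annotated exon length and KO minus WT, across 11162 genes that share the same libraries and are not independent, was 0.31 in pair 4, 0.18 in pair 1 and 0.10 in pair 2. The hosts had a median exon length of 1544 bases, the ribosomal protein genes 1770 bases and all genes 4545 bases. For the libraries numbered 4 minus the others, the same rho with exon length was 0.09. The part of length in the pair 4 values or in the difference by number was not tested.

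The libraries numbered 1 and 2 gave a second look at whether hosts move together, since that contrast did not enter their choice. None of the hosts passed the threshold between numbers 1 and 2 (limma, adjusted p 0.54 to 0.99), and 3 genes passed (0.0266%). KO 2 was below KO 1 for 8 of 10 hosts, with a median of -0.06, whereas WT 2 was below WT 1 for 4 of 10, with a median of 0.07. The sign was the same in both genotypes for 6 of 10 hosts and for 58.3% of all genes. Gas5 differed by 0.16 (SE 0.07) and Snhg3 by -0.22 (SE 0.11), with unadjusted p-values of 0.054 and 0.074 and adjusted p-values of 0.54 and 0.57 in limma's test.

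Related genes were examined in lists that were chosen with earlier results of these data known. Up to 4 genes are named from each list, those with the smallest p by number, so they stand for the extremes of a list. Outside the 10 hosts the contrast by number was tested with limma. KO 4 and WT 4 entered this test as separate libraries although they share a number, so at the level of the number it sets 1 against 2 and its p-values describe these libraries. At an adjusted p under 0.05, 31.8% of 11269 genes were higher and 33.8% were lower in the libraries numbered 4, and each list is to be read beside these shares. Under scaling to the reads of the table, 60.1% of the called genes were higher, compared with 48.5% under the authors' scaling. Some lists share genes: 21 protein-coding hosts are ribosomal protein genes, 4 are TOP mRNAs and 2 are snoRNP genes. Of the genes listed as decay targets, 3 are also stress response genes and 2 are also decay factors.

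Other noncoding hosts did not move as 1 group. Of 14 listed genes 8 were measured, 3 higher and 3 lower, with a median of -0.28. This list also holds Mir22hg, a microRNA host. Snhg16 was at 3.93, 3.90 and 6.03 log2 CPM in KO 1, KO 2 and KO 4 and at 3.83, 3.62 and 6.35 in WT 1, WT 2 and WT 4, a difference of 2.37 (SE 0.12, adjusted p = 5.5e-07). Snhg17 was also higher, by 1.25 (SE 0.09, adjusted p = 5.2e-06). Snhg4 was lower, at 4.26, 4.62 and 3.35 in KO and at 4.30, 4.47 and 3.35 in WT, a difference of -1.06 (SE 0.12, adjusted p = 4.7e-05). Dancr, which hosts a snoRNA and is known as an antidifferentiation transcript, was lower by -0.53 (SE 0.14, adjusted p = 0.0071), a call that ended without KO 4 (-0.40, limma adjusted p = 0.12). Without KO 4 the list had 1 gene lower and without WT 4 it had 2, and quantile normalization gave 2 higher and 4 lower.

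Protein-coding snoRNA hosts differed in both directions. Of 40 measured genes 15 were higher and 12 lower, with a median of 0.06 and a highest value of 0.63, below 7 of the 10 noncoding hosts. The lower ones included Hspa8, the constitutive cytosolic Hsp70, at -1.51 (SE 0.10, adjusted p = 3.0e-06), and Tcp1, a chaperonin subunit, at -0.59 (SE 0.06, adjusted p = 2.4e-05). Without WT 4 the list had 7 genes higher. Median centring gave 11 higher and 14 lower, quantile normalization 22 and 10, and scaling to the summed reads 19 and 10.

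Genes of the proteins that bind and assemble snoRNAs were lower or did not pass. Of 18 measured genes 12 were lower and 0 higher, with a median of -0.37. Nhp2 and Dkc1, components of box H/ACA particles, were lower by -0.95 (SE 0.05, adjusted p = 9.6e-07) and -0.65 (SE 0.06, adjusted p = 1.5e-05). Ruvbl1, an assembly ATPase, was lower by -0.67 (SE 0.05, adjusted p = 7.2e-06) and Nolc1, a nucleolar chaperone of these particles, by -0.64 (SE 0.05, adjusted p = 7.7e-06). Quantile normalization and scaling to the reads of the table each gave 10 lower and 1 higher.

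Ribosomal protein genes and other TOP mRNAs had list medians near 0. Of 79 ribosomal protein genes 20 were higher and 6 lower, with a median of 0.06. Rpl10a and Rpl13a were higher by 0.41 (SE 0.06, adjusted p = 0.00028) and 0.47 (SE 0.07, adjusted p = 0.00029), and Rpl37a was lower by -0.48 (SE 0.08, adjusted p = 0.00055). Reads of ribosomal protein genes can be shared with their many processed pseudogenes. The count of higher genes was 41 under scaling to the reads of the table, 56 under quantile normalization and 6 without WT 4. The count of lower genes was 3 under each of those scalings, 2 without KO 4 and 13 without WT 1. Of 15 other TOP mRNAs 5 were higher and 5 lower, with a median of -0.03. The elongation factor gene Eef2 was higher by 0.54 (SE 0.08, adjusted p = 0.00036) and the initiation factor gene Eif4b by 0.43 (SE 0.06, adjusted p = 0.00018). Eef1d, an elongation factor subunit gene, was lower by -0.74 (SE 0.06, adjusted p = 1.0e-05) and Hnrnpa1, an RNA-binding protein gene, by -0.35 (SE 0.07, adjusted p = 0.0012). In this list 3 genes were higher without KO 1 or without WT 4, and the lower genes numbered 3 without KO 1, KO 2 or WT 2, 2 without KO 4 and 3 under quantile normalization or scaling to the reads of the table. In pair 4 KO was below WT for 79 of 79 ribosomal protein genes and 15 of 15 other TOP mRNAs, beside 9 of 10 hosts. The list medians were -0.20, -0.16 and -0.13 there. Of the 11259 genes tested outside the hosts, 6000 were lower in KO in that pair. So were 37 of 40 protein-coding hosts, 16 of 20 stress response genes, 14 of 18 snoRNP genes and 10 of 13 decay targets. The stress response genes were not lowest in that pair: their list medians were 0.01, -0.55 and -0.07 in pairs 1, 2 and 4. Decay factors, at 10 of 19, and other noncoding hosts, at 5 of 8, were more evenly split.

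Factors of nonsense-mediated decay went in both directions. Of 19 measured genes 6 were higher and 9 lower, with a median of -0.15. Upf1, the central helicase of the pathway, was lower, at 7.65, 7.70 and 6.84 log2 CPM in KO 1, KO 2 and KO 4 and at 7.59, 7.61 and 6.66 in WT 1, WT 2 and WT 4, a difference of -0.89 (SE 0.05, adjusted p = 1.0e-06). Magoh, a core subunit of the exon junction complex, was lower by -1.13 (SE 0.08, adjusted p = 2.9e-06). Pnrc2, a decapping cofactor, was higher by 1.18 (SE 0.06, adjusted p = 4.2e-07) and Smg9, a regulator of the SMG1 kinase, by 0.73 (SE 0.07, adjusted p = 2.7e-05).

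Coding transcripts known as decay targets were split. Of 13 measured genes 6 were higher and 2 lower, with a median of -0.07, and 4 were lower without WT 2. The largest differences were those of Ddit3 at 4.09 (SE 0.12, adjusted p = 4.3e-08), Gadd45a at 3.92 (SE 0.13, adjusted p = 8.6e-08), Ppp1r15a at 3.58 (SE 0.11, adjusted p = 4.9e-08) and Atf3 at 3.35 (SE 0.07, adjusted p = 9.7e-09), which are also stress-induced genes. The integrated stress response is the programme that lowers translation initiation and induces ATF4 targets. Of its 20 listed genes 18 were higher and 0 lower, with a median of 2.52 (2.84 in KO and 2.20 in WT). The medians of the hosts were 1.39 in KO and 1.64 in WT, so the larger one was in the other genotype. Atf5, at 5.37, 5.30 and 8.66 in KO and at 5.43, 5.61 and 8.82 in WT in the order 1, 2 and 4, was higher by 3.31 (SE 0.06, adjusted p = 9.7e-09). Stc2, which encodes a secreted glycoprotein, was higher by 2.86 (SE 0.11, adjusted p = 1.3e-07). The part of this response in the host levels was not tested.

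**Figure D4:**
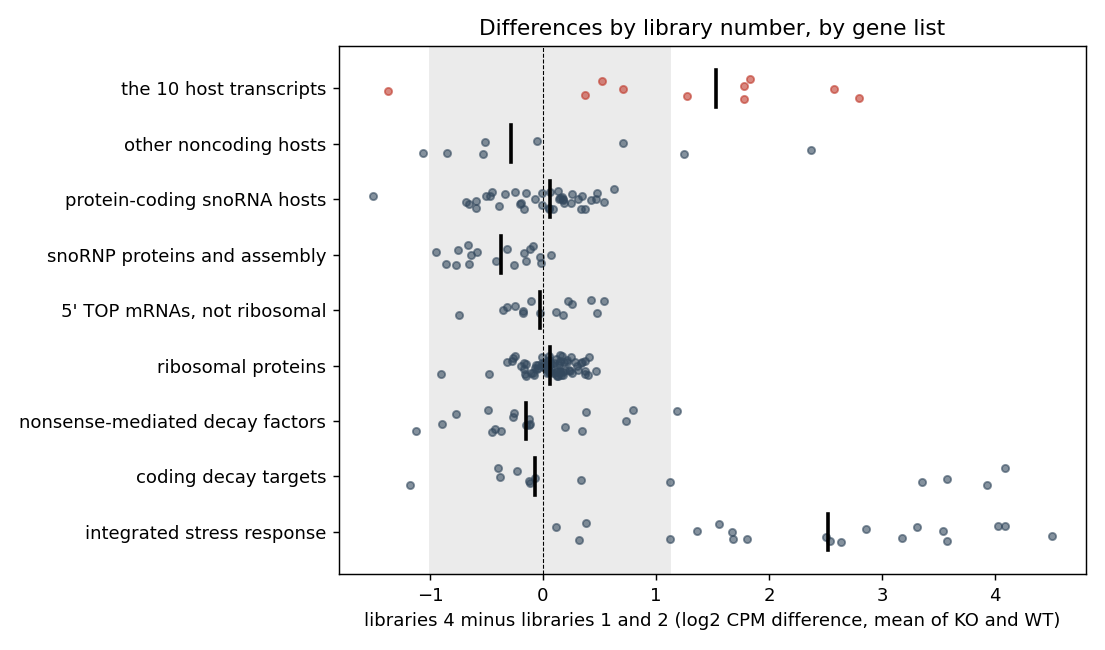
Libraries numbered 4 minus libraries 1 and 2 (log2 CPM difference, mean of KO and WT, horizontal axis) for each gene of 9 lists; a point is a gene, the black bar is the list median, the grey band covers the 5th to 95th percentile of all genes (-0.996 to 1.12) and the dashed line is their median. The 10 host transcripts (red) have a median of 1.53, the stress response genes 2.52, and the other lists lie between -0.37 and 0.06. The red points include Snhg12 and Zfas1, which were chosen for high levels in the libraries numbered 4.

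Of 22 measured genes that overlap a host or lie next to it, 6 were higher and 12 lower in the libraries numbered 4, with a median of -0.21, and of the 7 that overlap a host or lie within 954 bases of it 4 were higher and 3 lower, with a median of 0.40. Slc3a2, Prss12, Epb41l4a, Zbtb37 and Rcc1 had the sign of their own host, and Znfx1 and Trnau1ap the opposite sign. Slc3a2, the heavy chain gene of amino acid transporters and an ATF4 target, starts 105 bases from Snhg1 on the other strand. It was at 7.68, 7.71 and 9.33 in KO 1, KO 2 and KO 4 and at 7.62, 8.09 and 9.35 in WT 1, WT 2 and WT 4, a difference of 1.56 (SE 0.11, adjusted p = 3.2e-06) beside 1.83 for Snhg1. Prss12, a secreted protease gene 954 bases from Snhg8, was higher by 1.30 (SE 0.17, adjusted p = 0.00012). Epb41l4a, 340 bases from Epb41l4aos, was higher by 0.40 (SE 0.09, adjusted p = 0.0048), and Zbtb37, which overlaps Gas5 on the other strand with no common exon base, by 0.40 (SE 0.09, adjusted p = 0.0047). Both calls ended without KO 4, at 0.27 for Epb41l4a (limma adjusted p = 0.12) and 0.31 for Zbtb37 (limma adjusted p = 0.096). By contrast Znfx1, which overlaps Zfas1 by 82 exon bases on the other strand, was lower by -0.21 (SE 0.07, adjusted p = 0.019). That call ended under scaling to the reads of the table (-0.10, limma adjusted p = 0.21), without KO 4 (limma adjusted p = 0.12) and without WT 4 (limma adjusted p = 0.10). Trnau1ap, 738 bases from Snhg12, was lower by -0.28 (SE 0.07, adjusted p = 0.0054), a call that ended without KO 4 (-0.24, limma adjusted p = 0.077). The kit marks strand, but the sources used here do not give the strand setting of the counting, so reads of Zfas1 and Znfx1 in the shared bases may not be separated.

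Between KO and WT 0 of the 204 tested genes in these lists outside the hosts passed limma's threshold, with or without the replicate block, and 1 had an unadjusted p under 0.05.

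The genes whose pattern came closest to the hosts were ranked by the root mean square difference over the 6 libraries between their centred levels and the median of the centred hosts. The 8 nearest were Scarb2 at 0.04, Osbpl2 at 0.05, Them4 at 0.07, Lmbrd1 at 0.08, Ern1 at 0.08, Nr2c1 at 0.08, Hdac4 at 0.09 and Arap2 at 0.09. Scarb2 encodes a lysosomal membrane receptor, Lmbrd1 a lysosomal cobalamin exporter and Ern1 the stress sensor IRE1. Scarb2 was at 5.62, 5.52 and 6.96 in KO 1, KO 2 and KO 4 and at 5.46, 5.43 and 7.03 in WT 1, WT 2 and WT 4. Among the hosts the same measure was 0.11 for Snhg15, 0.15 for Snhg5 and 0.16 for Gas5, but 0.62 for Snhg12 and 1.35 for Snhg3. The 8 genes were the closest of all tested genes outside the hosts, so by the way they were picked they lay closer to the hosts' median than any host. This says nothing of how closely the hosts group.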

How the data were processed

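The authors deposited log2 CPM values for 6 libraries, with a prior added. Per the submitters' processing notes the tools were edgeR, featureCounts (Subread 1.6.4), STAR 2.7.3a and Trimmomatic 0.39, and the build GRCm38. The sources used here do not give the strand setting, annotation release or normalization. Pool numbers in the titles placed columns 1 and 2, while columns numbered 4 could be placed by genotype alone. The titles number the pools 1 to 3 in each genotype, and no title has the number 4.

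All values (100.0%) were whole multiples of 1 read after the lowest was subtracted, within a tolerance of 0.01. A count of 0 allows up to 0.144 to 0.173 CPM, taking 3 reads, for counting error only. limma 3.58.1 in R 4.3.3 was fitted to the deposited log2 values with a variance trend, for 11269 genes with log2 CPM of at least 0 in 3 libraries (183 dropped), with two-sided tests, Benjamini-Hochberg adjustment and a threshold of 0.05. The contrast of number 4 had genotype as a covariate. An exact permutation test of 3 against 3 cannot give a two-sided p under 0.1.

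The hosts and lists were chosen with earlier results of these data known. The rule for named genes took the hosts, Myo1e, up to 4 genes per list with the smallest p by number, neighbours and the 8 nearest patterns; genes it took for KO minus WT are given as counts, as are distant neighbours. One gene that the rule took is not reported here.

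Same-numbered KO and WT deviations from the genotype means correlated across genes at 0.744, 0.784 and 0.921 for the numbers 1, 2 and 4, and KO 1 with WT 2 and KO 2 with WT 1 at 0.687 and 0.617. The numbers were taken to pair the libraries, though number 4 stands apart and 1 and 2 are little better matched than crossed. This rests on the values, as no label states it. On simulated counts for 11269 genes, the fit without the block recovered 0% of 200 genes changed by 1 log2 unit between KO and WT, and the block fit 96.5%, with 3 false calls. For genes changed by 0.5 log2 units the block fit recovered 81%, with 12 false calls. The simulated dispersion was set to 0.005. Those counts held an effect of number 4 but none between numbers 1 and 2. Lengths, positions and reading frames came from GENCODE vM21, and start sequences from RefSeq.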

Additional observations from a re-analysis of the deposited data

How the results depend on the processing

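The differences by number kept their direction in all 10 hosts under each alternative run. These were no filter, a higher minimum, 2 pseudocounts, median centring, quantile normalization, 2 variance models, limma voom on the recovered reads, each library left out in turn and, chosen after seeing the data, scaling to the reads of the table. The median of the hosts was 1.39 to 1.64 with 1 library left out. For KO minus WT no host passed under any alternative, and the replicate block changed no call of a host. Over all genes the block gave 1 call against 0, as did limma voom with the block. Between numbers 1 and 2, an untrended variance gave 0 genes, a robust variance 17 and voom 1, against 3. With 1 library left out that count was 2 to 198, and the interaction gave 0 to 269 genes (145 without WT 1 and 269 without WT 2), with 0 hosts in either. The interaction cannot be fitted without KO 4 or WT 4.

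Some small differences changed sign. For KO minus WT, Snhg12 was 0.00021 under scaling to the reads of the table, 0.014 with voom and 0.10 in numbers 1 and 2 only, where Zfas1 was 0.065. Snhg6 was -0.0054 with voom and the block, and Epb41l4aos 0.0093 under quantile normalization. The interaction of Epb41l4aos was 0.015 under scaling to the reads of the table. With 1 library left out, the numbers fall unequally on the genotypes, so KO minus WT moves by construction: -0.89 to 0.98 for Snhg12, -0.84 to 0.87 for Zfas1, -0.50 to 0.69 for Gas5, -0.70 to 0.52 for Snhg1, -0.37 to 0.55 for Snhg3, -0.52 to 0.67 for Snhg5, -0.10 to 0.17 for Snhg6, -0.24 to 0.11 for Snhg8, -0.31 to 0.54 for Snhg15 and -0.25 to 0.22 for Epb41l4aos. The interaction was then -0.27 to 0.10 for Snhg3, -0.026 to 0.17 for Snhg8 and -0.16 to 0.12 for Epb41l4aos. Number 2 minus 1 was -0.26 to 0.01 for Snhg12, -0.11 to 0.13 for Zfas1, -0.070 to 0.10 for Snhg1, -0.14 to 0.025 for Snhg5, -0.047 to 0.15 for Snhg6, -0.18 to 0.039 for Snhg15 and -0.081 to 0.24 for Epb41l4aos. By number, Malat1 was 0.068 under quantile normalization, 0.10 under scaling to the reads of the table and -0.19 to 0.13 with 1 library left out, where it passed the threshold without WT 2 (-0.19, limma adjusted p = 0.035).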

Other observations

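Noncoding genes outside the 10 hosts gave a wider background for the contrast by number. Of 361 other tested genes annotated as noncoding, 104 were higher and 67 lower in the libraries numbered 4 in limma's test, with a median of 0.20. Without KO 4 and without WT 4 the higher genes numbered 62 and 67, and without WT 4 the lower ones numbered 42. Quantile normalization gave 71 higher and 85 lower. Neat1, the scaffold of nuclear paraspeckles, was at 6.39, 7.17 and 7.52 log2 CPM in KO 1, KO 2 and KO 4 and at 6.60, 6.46 and 7.60 in WT 1, WT 2 and WT 4, a difference of 0.90 (SE 0.18, adjusted p = 0.0016). Malat1, an abundant nuclear RNA, was at 6.68, 6.82 and 6.63 in KO and at 6.88, 6.13 and 6.60 in WT in the same order, and its difference of -0.01 did not pass (adjusted p = 0.95), while without WT 2 it was lower by -0.19 and passed (limma adjusted p = 0.035).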
